A study of Homo sapiens with 4 samples.

Results

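The H3K27ac peaks described here are those that the control list of RD cells holds and the SKP2 knockdown list does not. RD is an established cell line from a fusion-negative rhabdomyosarcoma, a malignant tumor of the skeletal muscle lineage. Members were chosen by the deposited peak positions of the 2 H3K27ac lists. A control peak on chromosomes 1 to 22, X or Y was a member when no knockdown peak overlapped it by 1 bp or more. Of the 25356 control H3K27ac peaks, 3446 were members (13.6%). They were split by the gap to the nearest knockdown peak. The 1781 isolated peaks (7.02% of the control list) had no knockdown peak within 1000 bp of either edge, and the 1665 shifted-edge peaks (6.57%) had one. The other 21910 control peaks are called kept. The series holds 78084 peaks in 4 lists, and the knockdown H3K27ac list has 38457, of which 18677 overlapped no control peak (knockdown-only).

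Chromatin immunoprecipitation sequencing (ChIP-seq) was run on 4 libraries, 1 per group. Cells infected with a vector for an shRNA against SKP2 (shSKP2, genotype label SKP2 knockdown) and cells infected with a vector for a non-targeting shRNA (shSCR, genotype label WT) were each profiled for H3K27ac and for MYOD. All 4 libraries came from RD cells, so every group carries the same tumor background, and the knockdown rests on 1 shRNA in 1 line. Without replicates, no test between shSKP2 and shSCR cells was possible, and intervals below are 95% intervals that cover counting error over peaks only.

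SKP2 is the substrate-recognition subunit of an SCF ubiquitin ligase, which marks inhibitors of cyclin-dependent kinases for degradation. Acetylation of lysine 27 on histone H3 (H3K27ac) is placed by the acetyltransferases p300 and CBP on nucleosomes beside active promoters and enhancers, and is removed by histone deacetylases when such an element is switched off. MYOD is the basic helix-loop-helix factor that commits cells to skeletal muscle. It binds E-boxes, of which CAGCTG is its preferred form, and recruits acetyltransferases to muscle enhancers.

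The sequence under the members took very different forms, and 2 sets of windows are shown to make this visible. Each holds 50 bases on either side of the H3K27ac summit, read from the plus strand of hg38. The first set is under 2 of the isolated peaks of highest score, both with a summit in sequence of more than 1 copy, and capitals mark CATTCC and the tandem run it forms, as in the human satellite repeats of pericentromeric chromatin, whose unit is CATTC.
chr4:49149387-49149487, nearest start site CWH43: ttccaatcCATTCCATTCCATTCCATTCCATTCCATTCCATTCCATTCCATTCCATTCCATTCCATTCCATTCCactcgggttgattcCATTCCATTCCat
chr17:43232444-43232544, CCDC200: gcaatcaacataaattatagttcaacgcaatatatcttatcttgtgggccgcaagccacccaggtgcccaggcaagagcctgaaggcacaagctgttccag

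The second set is under the 3 highest-scoring isolated peaks that a MYOD peak overlapped and that had CAGCTG, in capitals, within 50 bp of the summit.
chr15:31274486-31274586, nearest start site KLF13: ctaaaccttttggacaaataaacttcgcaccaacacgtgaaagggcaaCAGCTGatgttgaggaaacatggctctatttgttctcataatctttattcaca
chr16:75272325-75272425, BCAR1: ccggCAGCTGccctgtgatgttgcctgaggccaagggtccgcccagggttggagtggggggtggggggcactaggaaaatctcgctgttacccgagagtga
chr19:48134924-48135024, PLA2G4C: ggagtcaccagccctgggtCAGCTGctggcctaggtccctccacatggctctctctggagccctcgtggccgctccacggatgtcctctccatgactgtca

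The CWH43 window is a run of the satellite unit, whose central 31 bases occur 4838 times in the assembly. Those of CCDC200 occur 11 times. The E-box lay inside the MYOD peak at BCAR1. At KLF13 and PLA2G4C it lay under the H3K27ac peak but outside the MYOD peak, so that an E-box beside an H3K27ac summit and the MYOD peak that overlaps it need not coincide.

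Members were weaker and narrower than kept peaks in the list that chose them. The deposited fold, the enrichment of the summit over its local background, had a median of 3.67 in isolated, 3.36 in shifted-edge and 4.20 in kept peaks. The median -log10 p of the summit was 6.5 in isolated, 6.76 in shifted-edge and 10.3 in kept peaks. The median width was 255, 259 and 392 bp in the same order of classes. The number of fragments piled up at the summit, recovered from fold and p, had a median of 17 in isolated peaks, 20 in shifted-edge peaks and 26 in kept peaks. These values belong to the list that defined membership and describe the members only.

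**Figure D1:**
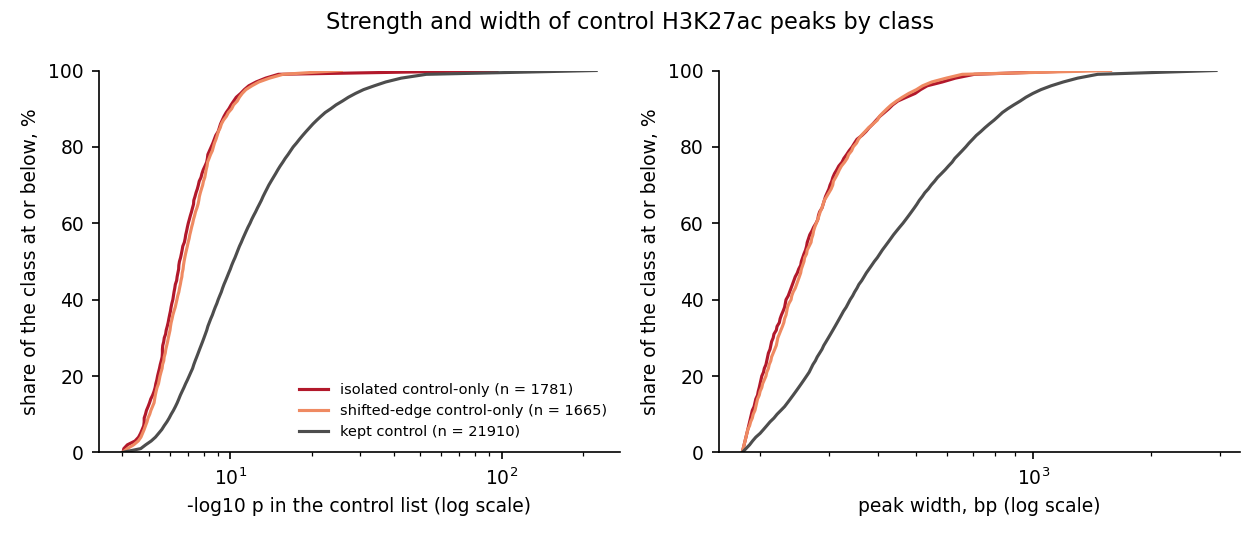
Cumulative distributions of -log10 p (left) and peak width in bp (right), both on log axes, for isolated, shifted-edge and kept control H3K27ac peaks; lines give the share of a class at or below each value. The curves of both member classes run to the left of the kept one, with median -log10 p of 6.5 and 6.76 against 10.3.

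Membership thinned out steeply with strength. Of control peaks with a -log10 p under 5, 23.7% were isolated and 17.1% were shifted edges (n = 912). Between 5 and 10, these shares were 11.0% and 10.5% (n = 12699). At 10 and over, 1.41% were isolated and 1.51% were shifted edges (n = 11745). A -log10 p of at least 10 was reached by 166 isolated peaks (9.32%), 177 shifted-edge peaks (10.6%) and 11402 kept peaks (52%). At 20, the numbers were 5 isolated, 3 shifted-edge and 3127 kept peaks.

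The distance of members from the calling threshold was read from the recovered pileups. The smallest background of a list, taken as a proxy for depth, was 1.61 in the knockdown and 1.75 in the control H3K27ac list, a ratio of 0.920. With pileup and background both scaled by this ratio, 95.6% of isolated, 96.9% of shifted-edge and 99.1% of kept peaks still passed the smallest -log10 p of the knockdown list. With the pileup lowered by a further 25%, 30.6% of isolated, 30.6% of shifted-edge and 72.7% of kept peaks passed. With the pileup lowered by a further 50%, 0.955% of isolated, 1.08% of shifted-edge and 22.3% of kept peaks passed. Under this scaling, a signal reduced by 25% would leave out most members, so absence from the knockdown list need not be absence of acetylation. Whether signal fell by any such amount was not tested. Signal of the knockdown library at these positions was not analysed here.

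On a log scale, the gap to the nearest knockdown peak had 2 modes among the members. For shifted-edge peaks the gap had a median of 306 bp, a 10th percentile of 102 bp and a 90th percentile of 637 bp. The nearest knockdown peak lay to the left of 792 and to the right of 873 of them, and 121 had knockdown peaks on both sides within 1000 bp. For isolated peaks the median gap was 12.7 kb, the 90th percentile was 61.9 kb and the largest was 1455 kb. A gap over 10 kb was found for 1037 isolated peaks and one over 100 kb for 87.

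**Figure D2:**
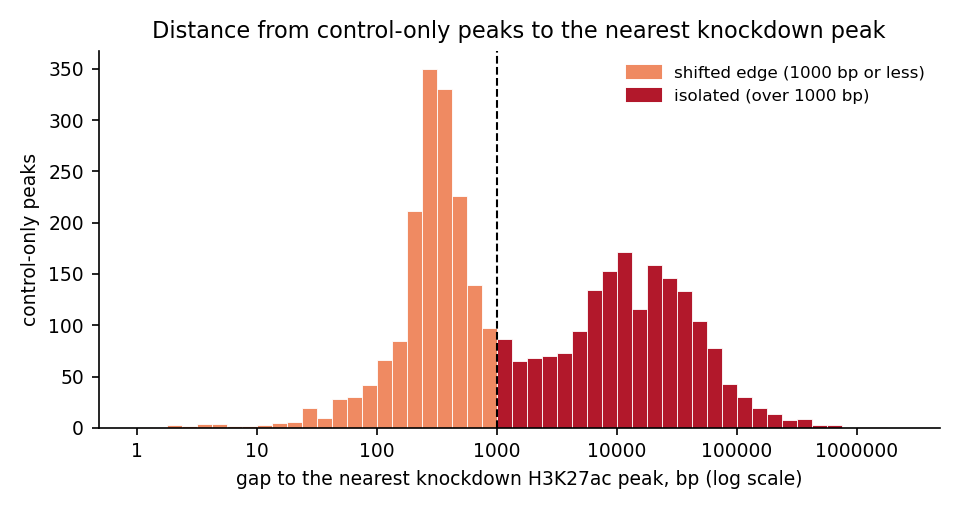
Number of control-only H3K27ac peaks by the gap in bp to the nearest knockdown H3K27ac peak, on a log axis; the dashed line is the 1000 bp limit between shifted-edge peaks (left) and isolated peaks (right). The shifted edges peak near their median of 306 bp and the isolated peaks near their median of 12.7 kb.

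The 1000 bp limit fell near the low point between them. The shifted-edge peak of largest gap lay 998 bp from a knockdown peak (chr3:152266932-152267201, 3.32-fold) and the isolated peak of smallest gap lay 1005 bp away (chr4:183099969-183100190, 3.69-fold). Gaps of at most 2000 bp were found for 180 isolated peaks. At the other end, 1 shifted-edge peak abutted a knockdown peak with a gap of 0 bp (chr7:100867898-100868204), and 16 kept peaks were overlapped by at most 10 bp.

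The split by gap also sorts peaks by their neighbors in the control list, since a kept peak nearby brings a knockdown peak nearby. As a description, another control peak lay within 1000 bp of 61.6% of shifted-edge peaks (59.2 to 63.9), 13.6% of isolated peaks (12.1 to 15.3) and 49.8% of kept peaks (49.2 to 50.5). The knockdown peak nearest to a shifted-edge peak had a median width of 470 bp and was the wider of the pair in 83.0% of cases. In 960 cases (57.7%) that knockdown peak also overlapped another control peak.

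Of the 10 highest-scoring shifted edges, 6 lay at promoters. OIP5, a factor of centromere assembly, had a 7.18-fold control peak in its coding exon 1 (chr15:41332240-41332580), 340 bp from a 4.6-fold knockdown peak. UNG, the glycosylase that removes uracil from DNA, had a 6.51-fold control peak over the 5′ UTR in exon 1, 242 bp from a 5.41-fold knockdown peak. TROAP, a spindle-associated protein, had a 7.58-fold control peak 384 bp from a 4.24-fold knockdown peak. E2F3, a transcription factor of the G1 to S transition, had a 4.46-fold control peak in the 5′ UTR of exon 1, 442 bp from a 4.53-fold knockdown peak. At each of these 4 promoters a knockdown peak was thus called within 442 bp of the control one. ASXL1, a Polycomb-associated chromatin regulator, and LCOR, a nuclear receptor corepressor, had promoter control peaks 272 and 381 bp from the nearest knockdown peak. The other 4 lay outside promoters. Their nearest start sites were FRMD8, SIRT4 and PTCD2, at 36, 8.95 and 68.2 kb, and the peak of TAGLN3 was in intron 3.

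Of the loci followed in the study, 3 had a shifted edge and no isolated peak. The one at MYL1, an alkali light chain of fast-muscle myosin, was 4.96-fold (chr2:210318800-210318982) and lay 216 bp from a 3.24-fold knockdown peak. H3K27ac peaks covered 3.62 kb of the MYL1 domain, the gene body with 10 kb on each side, in shSKP2 cells and 0.916 kb in shSCR cells. At CDKN1A, which encodes p21, the only control peak of the domain was a shifted edge of 2.73-fold, 181 bp from a 5.13-fold knockdown peak, and cover was 2.55 kb in shSKP2 and 0.389 kb in shSCR cells. At CDKN1B, which encodes p27, the shifted edge lay 793 bp from a knockdown peak, and cover was 3.82 kb in shSKP2 and 1.83 kb in shSCR cells. In these 3 domains knockdown peaks covered more DNA than control peaks, although a control peak was without overlap. Cover was larger in shSKP2 cells at 93.4% of all genes with a control peak, so more cover does not set these 3 apart.

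Isolated peaks were seldom at promoters, here a summit no more than 2 kb from the transcription start site (TSS) that GENCODE marks as canonical for a protein-coding gene. Promoters held 200 isolated peaks (11.2%, 9.85 to 12.8), 414 shifted-edge peaks (24.9%, 22.8 to 27) and 8902 kept peaks (40.6%, 40.0 to 41.3). Isolated peaks differed from kept peaks by -29.4 points (-30.9 to -27.7) and from shifted-edge peaks by -13.6 points (-16.2 to -11.1). A promoter with a knockdown peak nearby leaves little room for an isolated peak, so the rule bears on both differences, and its part was not tested. The rest of the isolated peaks divided into 49.5% in gene bodies and 39.3% between genes. Knockdown-only peaks were at promoters in 21.2% of cases (20.7 to 21.8).

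The difference in promoter share is also given in classes of strength. These are wide and do not match strength, since at 10 and over 5 of 166 isolated but 3127 of 11402 kept peaks reached a -log10 p of 20, and the part of strength in the difference was not tested. It was -24.9 points (-30.0 to -19.0) among control peaks with a -log10 p under 5, -22.0 points (-23.8 to -20.0) between 5 and 10 and -32.4 points (-37.2 to -26.1) at 10 and over. For shifted-edge minus kept peaks it was -9.99, -9.08 and -15.8 points, each with an interval below 0.

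**Figure D3:**
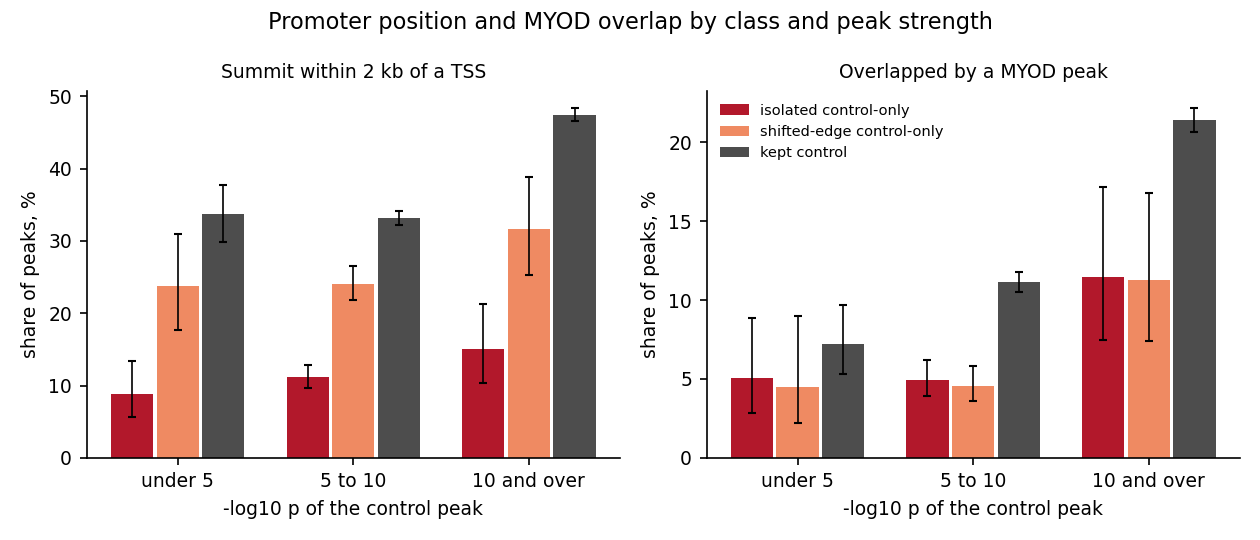
Share of isolated, shifted-edge and kept control H3K27ac peaks whose summit lies within 2 kb of a TSS (left) and that a MYOD peak of either list overlaps (right), in classes of the peak's -log10 p; bars are shares in percent and error bars show 95% Wilson intervals, counting error only. Isolated peaks have the lowest promoter share in each class, and among peaks of -log10 p 10 and over 11.4% of isolated against 21.4% of kept peaks carry MYOD.

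Where members lay at promoters, they lay off the center. The TSS itself was covered by 6 of 200 isolated promoter peaks (3.0%, 1.38 to 6.39), 10 of 414 shifted-edge peaks (2.42%, 1.32 to 4.39) and 1482 of 8902 kept peaks (16.6%, 15.9 to 17.4). The summit was a median of 602.5 bp from the TSS in isolated, 544 bp in shifted-edge and 308.5 bp in kept promoter peaks. It was more than 500 bp away in 55.5% of isolated, 53.1% of shifted-edge and 28.9% of kept promoter peaks. Members are narrower than kept peaks. A control peak that covers the same TSS as a knockdown peak is also kept by the rule, so the rule bears on these positions. The parts of width and of the rule were not tested.

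**Figure D4:**
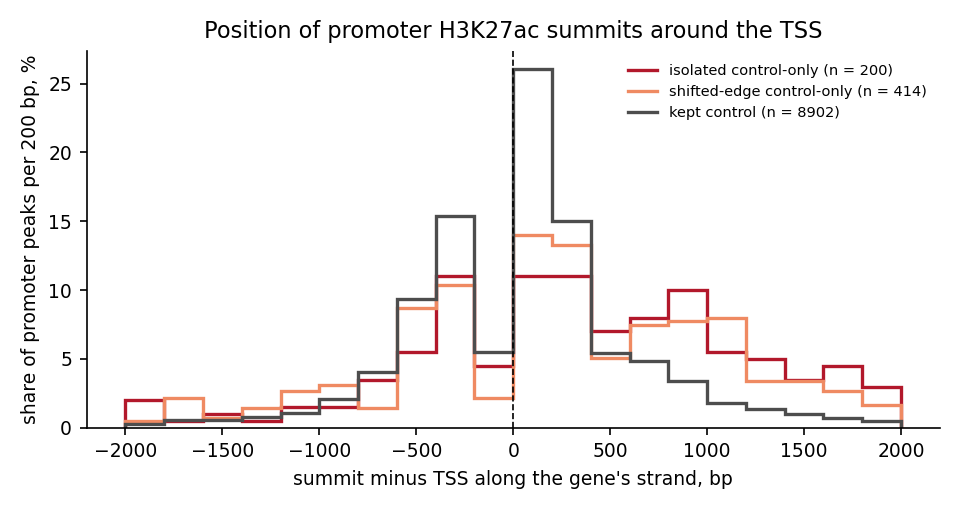
Position of the summit of promoter H3K27ac peaks relative to the TSS in bp, positive along the direction of transcription, as the share of each class per 200 bp; the dashed line is the TSS. In the bin from 0 to 200 bp downstream lie 26.1% of kept peaks but 11% of isolated and 14% of shifted-edge ones, while from 800 to 1000 bp downstream lie 10% of isolated, 7.73% of shifted-edge and 3.43% of kept peaks.

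The 200 isolated promoter peaks belonged to 191 genes, and 141 of these genes had no knockdown H3K27ac peak within 2 kb of the TSS. For shifted edges, which the rule places beside a knockdown peak, 408 of 411 genes had one there, and both counts follow from the split by gap. The highest-scoring isolated promoter peak was that of PBX3, a TALE homeodomain cofactor of HOX proteins (chr9:125746260-125746522, 5.85-fold, -log10 p of 24.2, 0.939 kb from the TSS). The nearest knockdown peak lay 16.3 kb away. MAP3K9, a mixed-lineage kinase upstream of JNK, had a 5.65-fold peak in intron 1.

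MCM5, a subunit of the replicative helicase, had a 4.91-fold peak 0.36 kb from its TSS (chr22:35399587-35399891, -log10 p of 14.3). The nearest knockdown peak, 4.66-fold, was 1277 bp away, and a knockdown MYOD peak of 4.71-fold overlapped the control H3K27ac peak. CDC6, which loads that helicase on replication origins, had a 4.95-fold peak in intron 1 (chr17:40287934-40288527), 3413 bp from the next knockdown peak. SPC25, a kinetochore subunit, had a 5.98-fold peak in intron 1 (chr2:168890026-168890417), the only control peak of its domain. Cover of the SPC25 domain was 0.298 kb in shSKP2 and 0.392 kb in shSCR cells. At MCM5 it was 1.23 kb in shSKP2 and 0.793 kb in shSCR cells, and at CDC6 it was 1.6 kb in shSKP2 and 0.857 kb in shSCR cells. Both domains thus had more cover in shSKP2 cells, although a promoter peak of the control list was without overlap. More cover was found at 77.0% of genes with an isolated peak and at 93.4% of all genes with a control peak.

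LUZP1, PTPN9, SEPTIN10, C17orf49 and ACOT11 completed the 10 highest-scoring isolated promoter peaks. PTPN9, a protein tyrosine phosphatase, had a 5.22-fold peak in intron 1, 46.7 kb from the nearest knockdown peak, with domain cover of 0.696 kb in shSKP2 and 1.31 kb in shSCR cells. LUZP1, an actin-associated centrosomal protein, had a 6.38-fold peak 67.2 kb from the nearest knockdown peak. The peak at MET, the receptor of hepatocyte growth factor, lay 0.13 kb from the TSS (chr7:116671980-116672180, 4.35-fold), with the nearest knockdown peak 27.3 kb away.

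Outside promoters, introns held the isolated peaks of CLIP2, a microtubule-binding protein (intron 1, 5.74-fold), QSER1 (intron 4, 6.04-fold) and KATNAL2, a katanin-like ATPase (intron 3, 7.64-fold). An 8.73-fold peak lay 51.5 kb from NKD2, an inhibitor of WNT signaling, with the nearest knockdown peak 64.5 kb away. Of the 12 isolated peaks of highest score, 2 more were more than 300 kb from a TSS, 336 kb from KLF4 (chr9:107825756-107826331, 4.91-fold) and 371 kb from PCDH7 (chr4:30348505-30349019, 6.12-fold).

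Repeated sequence was most frequent among the strongest isolated peaks. The 31 bases centered on the summit occurred more than once in hg38 for 7.52% of isolated, 7.09% of shifted-edge and 5.12% of kept peaks. At a -log10 p of 10 and over the shares were 15.1% of isolated, 5.08% of shifted-edge and 4.68% of kept peaks, and isolated differed from kept peaks by 10.4 points (5.71 to 16.6). Between 5 and 10 that difference was 0.893 points (-0.352 to 2.35), and shifted-edge minus kept was 1.66 points (0.322 to 3.22). The highest isolated peak of all, at the satellite run shown above (chr4:49149337-49149531), was 17.1-fold with a -log10 p of 96.3, lay 163 kb from CWH43 and was overlapped by a knockdown MYOD peak of 16.7-fold. The one at CCDC200 (chr17:43232437-43232618) was 12-fold. Both lay where the numbering of the knockdown list skips a peak, as did 4 isolated peaks (0.225%) and 1 shifted-edge peak in all. The lists hold only the peaks left after the authors removed regions of an exclusion list, so that for these 5 a removed knockdown peak and an uncalled one cannot be told apart.

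The isolated peaks in introns of RASA4 and RASA4B, nearly identical Ras GTPase-activating genes on chromosome 7, were 8- and 7.64-fold. Their summit 31-mers each occurred once, but reads from near-identical copies cannot always be assigned to one of them.

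MYOD peaks, from libraries that the rule did not use, overlapped members less often than kept peaks. A peak of either MYOD list overlapped 99 isolated peaks (5.56%, 4.59 to 6.72), 88 shifted-edge peaks (5.29%, 4.31 to 6.47) and 3591 kept peaks (16.4%, 15.9 to 16.9). Isolated minus kept was -10.8 points (-11.9 to -9.57) and isolated minus shifted-edge 0.273 points (-1.26 to 1.79). Among knockdown-only peaks the share was 8.89% (8.49 to 9.31). Within positions, isolated minus kept was -10.8 points at promoters, -13.5 in gene bodies and -10.1 between genes.

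By strength, the MYOD difference between isolated and kept peaks was -2.13 points (-5.48 to 2.11) at a -log10 p under 5, -6.20 points (-7.40 to -4.80) between 5 and 10 and -9.97 points (-14.0 to -4.18) at 10 and over. In the weakest class no difference was detectable at this number of peaks. Width also sets the chance of an overlap. Counted instead by a MYOD summit within 500 bp of the H3K27ac summit, a measure chosen after seeing the data, the shares were 9.83% of isolated, 11.5% of shifted-edge and 22.4% of kept peaks, and isolated minus kept was -12.6 points (-14.0 to -11.0).

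The 99 isolated peaks with MYOD divided into 30 with a MYOD peak in both lists, 31 with one in the knockdown MYOD list alone and 38 with one in the control MYOD list alone. Among kept peaks these numbers were 1492, 1340 and 759. Under isolated H3K27ac peaks lay 67 control MYOD peaks, of which 41 (61.2%, 49.2 to 72.0) were also in the knockdown MYOD list. Under shifted-edge peaks 44 of 58 were (75.9%, 63.5 to 85.0), under kept peaks 1536 of 2120 (72.5%, 70.5 to 74.3), and away from control H3K27ac peaks 59.0% were (57.4 to 60.6). Isolated minus kept was -11.3 points (-23.4 to -0.328). Among MYOD peaks with a -log10 p of at least 10 it was -14.5 points (-30.3 to -3.02), from 28 of 38 and 1159 of 1314 peaks, and under 10 it was -1.95 points (-18.7 to 16).

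At the 30 isolated peaks with MYOD in both lists, the median MYOD fold was 5.56 in the shSKP2 and 6.38 in the shSCR list. At the 32 such shifted-edge peaks it was 7.66 in the shSKP2 and 8.09 in the shSCR list. At the 1492 kept peaks it was 7.03 in the shSKP2 and 6.70 in the shSCR list. Folds of separate libraries were not put on a common scale here.

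Single sites show each kind. At MYOD1 itself, an isolated peak of 3.44-fold lay 5.27 kb from the TSS (chr11:17714089-17714332), 5254 bp from the nearest knockdown H3K27ac peak, while MYOD peaks of 7.94-fold in the shSKP2 list and 8.43-fold in the shSCR list overlapped it. Cover of the MYOD1 domain was 1.35 kb in shSKP2 and 0.758 kb in shSCR cells. In intron 1 of CLIP2 a control MYOD peak of 4.41-fold was under the isolated peak and no knockdown one. In intron 17 of EXD3, 26.1 kb from NRARP, a Notch-regulated ankyrin protein, MYOD was 5.92-fold in the shSKP2 and 6.38-fold in the shSCR list, over a summit 31-mer found 2 times in hg38. At the ACOT11 promoter MYOD was 6.05-fold in the shSKP2 and 6.47-fold in the shSCR list. Near BSPH1, MYOD was 10.9-fold in the shSKP2 and 8.46-fold in the shSCR list, over a summit 31-mer found 5 times in hg38. Of the 10 highest-scoring isolated peaks with MYOD, MCM5, SH3GLB2 and IZUMO1R had it in the shSKP2 list alone, and CLIP2 and TAF8, whose peak lies in CCND3, had it in the shSCR list alone.

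The share with the MYOD E-box did not differ between isolated and kept peaks beyond counting error. CAGCTG, which is its own reverse complement, was found no more than 100 bp from the summit in 9.60% of isolated (8.32 to 11.1), 8.53% of shifted-edge (7.28 to 9.97) and 9.36% of kept peaks (8.98 to 9.75). Windows of the same length 2 kb away and outside H3K27ac peaks held it in 8.80%, 7.31% and 7.65% of cases, for the same order of classes. Isolated minus kept was 0.245 points (-1.10 to 1.75). Where a MYOD peak overlapped, the share was 21.2% of isolated, 14.8% of shifted-edge and 15.3% of kept peaks. Around MYOD's own summits it was much higher. CAGCTG was within 100 bp of the summit of 42.6% of knockdown (31 to 55.1) and 62.7% of control MYOD peaks (50.7 to 73.3) under isolated peaks, and of 59.9% of knockdown and 64.2% of control MYOD peaks under kept peaks.

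Of the 12 motifs searched, each on both strands within 100 bp of the summit, isolated and kept peaks differed beyond counting error in 3. CCCGCCC, the core recognized by SP and KLF factors, was in 3.48% of isolated, 4.56% of shifted-edge and 7.80% of kept peaks, and isolated minus kept was -4.32 points (-5.16 to -3.31). At promoters alone the shares were 16.5% of isolated (12 to 22.3) and 15.2% of kept peaks (14.4 to 15.9). CCAAT, the NFY core, was in 22.9% of isolated and 19.0% of kept peaks, a difference of 3.83 points (1.87 to 5.90), and in 25.5% of windows 2 kb from isolated peaks. TATTTATA, of the MEF2 type, was in 2.02% of isolated and 1.00% of kept peaks, a difference of 1.02 points (0.442 to 1.79), and in 2.17% of windows 2 kb from isolated peaks.

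Shifted-edge peaks differed from kept peaks in other motifs too. CAGGTG was in 16% of shifted-edge and 12.9% of kept peaks (3.15 points, 1.41 to 5.04), TGTGGT of RUNX in 12.5% and 9.59% (2.90 points, 1.35 to 4.62), GGAATG of TEAD in 12.3% and 10.2% (2.10 points, 0.551 to 3.81), and the octamer ATTTGCAT in 1.56% and 0.876% (0.685 points, 0.174 to 1.41). Windows 2 kb from shifted-edge peaks held CAGGTG in 18.0%, TGTGGT in 13.0%, GGAATG in 11.0% and ATTTGCAT in 1.99% of cases. The shares with CACGTG of the MYC type, with TGACTCA of AP-1, with TGACGTCA of CREB and with CCGGAAGT of ETS factors did not differ from kept peaks beyond counting error in either class, nor did those with TTTGGCGC or with TTTCCCGC of E2F type, which were chosen after seeing the data.

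Base composition moved with these differences. The median GC content within 100 bp of the summit was 45.8% in isolated, 46.8% in shifted-edge and 51.2% in kept peaks, against 43.3 to 43.8% in windows 2 kb away. At least 10 CpG dinucleotides, as in CpG islands, were in 10.3% of isolated, 14.5% of shifted-edge and 31% of kept windows. The part of composition in the motif shares was not tested.

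By chromosome, isolated peaks made up between 3.80% of control peaks on chromosome 19 (2.85 to 5.05) and 11.0% on chromosome 21 (7.84 to 15.3). Chromosomes X, 13 and 18 had 10.4%, 10.4% and 9.81%. Shifted edges spread less, between 4.82% on chromosome 19 and 8.84% on chromosome 13.

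An isolated peak lay in the body or within 10 kb of 1184 of 20007 protein-coding genes (5.92%), and a shifted-edge peak at 1499 (7.49%). Less of the domain was covered by H3K27ac peaks in shSKP2 than in shSCR cells at 785 genes (3.92%) and more at 13366 (66.8%). Among the 1184 genes with an isolated peak, 271 (22.9%) had less cover and 912 (77.0%) had more, and 841 also held a knockdown-only peak. An isolated peak takes cover from a domain by its definition, so these counts describe the genes. In 266 of the genes every control peak was isolated, and in 115 the knockdown list had no peak left. A single isolated peak was found in 970 genes, 2 in 157, 3 in 37 and 4 or more in 20, while 582 isolated peaks lay in no gene domain. Long genes held more of them. With genes in 3 equal classes by length, the share was 11.3% in the longest, 3.99% in the middle and 2.49% in the shortest class.

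GRK5 and ITGA9 had the most, 6 each. At GRK5, a kinase that desensitizes G protein-coupled receptors, 6 of 17 control peaks were isolated. They were 2.77- to 4.15-fold, 3 between 3.96 and 4.56 kb from the TSS and 3 in intron 4, and 1 control MYOD peak of 7.41-fold overlapped 2 of those in intron 4 (chr10:119421707-119421977 and chr10:119422307-119422815). Cover was 8.05 kb in shSKP2 and 7.51 kb in shSCR cells. At ITGA9, an integrin subunit, the 6 lay in introns 4, 14, 15, 16, 18 and 22 at 2.82- to 3.52-fold, and cover was 7.70 kb in shSKP2 and 5.26 kb in shSCR cells. GSE1, a subunit of a corepressor complex, and the unnamed gene models ENSG00000271949, over LRRC8C and LRRC8D, and ENSG00000283563, over RBMS3, had 5 each.

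Most isolated peaks stood singly along the chromosome. When consecutive isolated peaks at most 50 kb apart with no knockdown peak between them were joined, 1396 stood alone, 155 pairs formed, and 21 runs of 3 and 3 runs of 4 peaks remained. The runs of 4 were at LRRC8D, a subunit of the volume-regulated anion channel, at IL7R and at ZC3HAV1, an antiviral zinc-finger protein. Genes of this and the next paragraph were chosen after their values were seen. At IL7R, the interleukin-7 receptor chain, 4 of 5 control peaks were isolated (chr5:35857579-35884667, 3.28-, 2.94-, 3.39- and 3.85-fold), and cover was 0.349 kb in shSKP2 and 1.92 kb in shSCR cells. This was the largest difference toward less cover among genes with an isolated peak. The neighboring SPEF2 had 3 control peaks, all isolated and 106 kb or more from a knockdown peak, 1 of them over a summit 31-mer found 1014 times in hg38. At ZC3HAV1 all 4 control peaks were isolated, and cover was 1.24 kb in shSKP2 and 1.92 kb in shSCR cells.

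Of the 115 domains with an isolated peak and no knockdown peak, 6 were chosen after their values were seen. In these 6 every control peak was isolated. SNAI1, a zinc-finger repressor of epithelial genes that drives epithelial-mesenchymal transition, had 3 control peaks 3.72 to 6.54 kb from its TSS at 3.96-, 3.69- and 3.02-fold, and the nearest knockdown peak was at least 42.0 kb away. MDFI, which encodes the MyoD family inhibitor I-mfa, had a 3.30-fold peak 0.354 kb from its TSS (chr6:41637990-41638201) and a 3.67-fold peak 17.4 kb away. JAG1, a Notch ligand, had 2 control peaks and FGF2, a mitogen of myoblasts, had 1, and E2F7, an atypical repressor of the E2F family, had 1. CLDN4, a claudin of tight junctions, had 3. Each of these 6 domains had 0 kb of cover listed in shSKP2 cells and between 0.258 and 0.68 kb in shSCR cells.

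Gene lists are described by counts beside all genes. Against 5.92% of all genes, and 9.84% of the 12037 genes with a control peak, an isolated peak was found at 19 of 42 homeobox and developmental factors (45.2%). Those 19 genes hold 18 distinct peaks, since neighboring HOX genes share them, and 40 of the 42 had a control peak. They were HOXA9, HOXA10, HOXA11 and HOXA13, HOXB3, HOXC6, HOXC9, HOXC10 and HOXC11, HOXD9, HOXD10 and HOXD11, which set position along the body axis, with PBX3 and MEIS2, their cofactors, GLI2 and GLI3, the effectors of Hedgehog signaling, NFIB, RUNX1 and NKX2-5. Shifted-edge peaks were found at the same share of this list, 45.2%, against 7.49% of all genes. A gene with many control peaks has more chances to hold a member. Shares per control peak were not computed for any list. In the HOXA cluster a 2.9-fold peak lay 3.4 kb from HOXA11 (chr7:27188529-27189269) and a 2.20-fold peak in an intron of HOXA10 (chr7:27172512-27172789). At HOXD10 a 3.25-fold peak lay 0.243 kb from the TSS (chr2:176116278-176116547), and a 3.52-fold peak lay in coding exon 2 of HOXD11. Cover was larger in shSKP2 cells at 37 of the 42 genes and smaller at 3, with a median difference, shSKP2 minus shSCR, of 0.903 kb. Of all genes with a control peak, 93.4% had more cover in shSKP2 cells, with a median difference of 0.737 kb, so that the count is near the background. At HOXA10 cover was 3.26 kb in shSKP2 and 1.49 kb in shSCR cells.

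**Figure D5:**
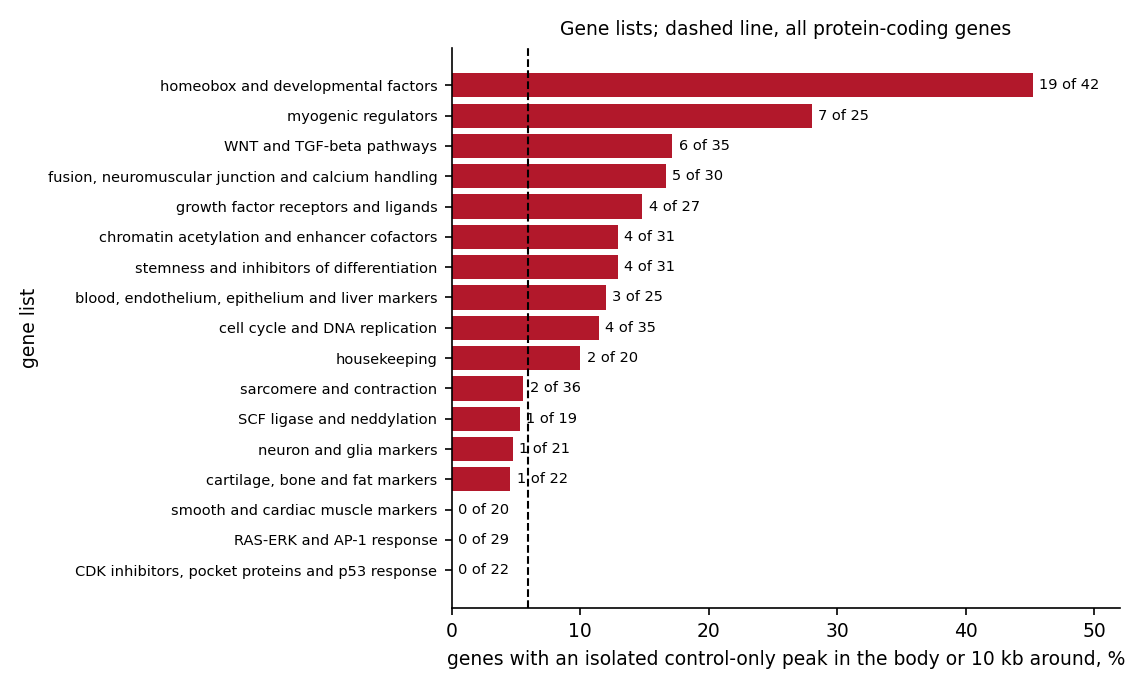
Share of genes in each of 17 lists with an isolated control-only H3K27ac peak in the gene body or 10 kb around it, in percent, with the count beside each bar; the dashed line is the 5.92% of all 20007 protein-coding genes. Homeobox and developmental factors (19 of 42) and myogenic regulators (7 of 25) stand highest, and 3 lists have none. Shares are per gene and take no account of the number of control peaks a gene holds.

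Myogenic regulators followed, with 7 of 25 genes (28.0%) in 7 peaks. They were MYOD1, PAX7, the marker of satellite cells, PITX3, MEF2D and TEAD1, which activate muscle genes, and TCF4 and TCF12, the E-protein partners of MYOD. The peak at PITX3 lay in the 3′ UTR of exon 4 (4.43-fold) and that at TCF4 in intron 15 (3.6-fold). Except at PAX7, with 1.5 kb in shSKP2 and 1.71 kb in shSCR cells, cover of these domains was larger in shSKP2 cells, as at TCF4 with 11.0 kb in shSKP2 and 3.55 kb in shSCR cells. The whole list had more cover at 24 of 25 genes, with a median difference, shSKP2 minus shSCR, of 1.06 kb, and 23 of the 25 had a control peak. This count too is near the 93.4% of all genes with a control peak, whose median difference was 0.737 kb.

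Of 36 sarcomere and contraction genes 2 had an isolated peak (5.56%, against 5.92% of all genes). ACTN2, alpha-actinin of the Z-disc, had 2 isolated peaks, its only control peaks, with cover of 0.306 kb in shSKP2 and 0.594 kb in shSCR cells, and MYL4, an embryonic myosin light chain, had 1. Of 30 genes of fusion, neuromuscular junction and calcium handling, 5 had one (16.7%). They were CHRNA1 and MUSK, parts of the acetylcholine receptor apparatus, the cadherins CDH15 and CDH2, and JPH2, which ties the sarcoplasmic reticulum to the plasma membrane. CDH15, M-cadherin, had cover of 0.653 kb in shSKP2 and 0.931 kb in shSCR cells. At CHRNA1, MUSK, CDH2 and JPH2 cover was larger in shSKP2 cells, as at JPH2 with 4.39 kb in shSKP2 and 3.4 kb in shSCR cells. Of the 36 sarcomere and contraction genes, 25 had more cover in shSKP2 cells and 3 had less. Of the 30 genes of the other list, 22 had more and 2 had less. Among all genes, 66.8% had more and 3.92% had less.

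WNT and TGF-beta pathways had 6 of 35 genes (17.1%), SKI, SKIL, SMAD3 and SMAD7 of the SMAD branch and DKK1 and WNT5B of the WNT branch. SMAD7, the inhibitory SMAD, held 3 isolated peaks within 1.29 kb of intron 3 (chr18:48929161-48930452) at 4.49-, 4.29- and 3.30-fold, and cover was 1.77 kb in shSKP2 and 2.29 kb in shSCR cells. Over the 35 genes of this list, cover was larger in shSKP2 cells at 24, near the 66.8% of all genes. It was smaller at 3, against 3.92% of all genes. Growth factor receptors and ligands had 4 of 27 (14.8%), FGF2, FGFR4, MET and NRG1. Stemness genes and inhibitors of differentiation had 4 of 31 (12.9%), ZEB1, ZEB2, JAG1 and SNAI1. Unlike JAG1 and SNAI1, ZEB2 had cover of 6.99 kb in shSKP2 and 2.72 kb in shSCR cells. At ZEB1 it was 0.732 kb in shSKP2 and 0.436 kb in shSCR cells. Over the 31 genes of the stemness list, cover was larger in shSKP2 cells at 21, again near the 66.8% of all genes, and smaller at 4. Chromatin acetylation and enhancer cofactors had 4 of 31, HDAC2, HDAC4, KAT6A and NCOA2. The SCF ligase and neddylation list had 1 of 19, BTRC, an F-box relative of SKP2, and SKP2 itself had none.

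Cell cycle and DNA replication genes had isolated peaks at 4 of 35 (11.4%), CCND3, E2F7, CDC6 and MCM5. Shifted edges were found at 12 of the 35 (34.3%, against 7.49% of all genes). A control peak was held by 29 of the 35, but by only 60.2% of all genes. The list of CDK inhibitors, pocket proteins and p53 response had no isolated peak at 22 genes, against 5.92% of all genes. Shifted edges were at 7 of them (31.8%), and 17 had a control peak. RAS-ERK and AP-1 response genes likewise had none at 29 genes, of which 28 had a control peak, and shifted edges at 7 (24.1%). Whether a count of 0 in lists of this size differs from the share over all genes was not tested. Over the 17 lists the shifted-edge share ran between 0%, for smooth and cardiac muscle markers, and 45.2%, for homeobox and developmental factors. It was 29.6% for growth factor receptors and ligands, 28.0% for myogenic regulators and 25.7% for WNT and TGF-beta pathways.

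The median difference in cover, shSKP2 minus shSCR, ran over the 17 lists between 0 kb, for neuron and glia and for smooth and cardiac muscle markers, and 1.39 kb, for chromatin acetylation and enhancer cofactors. Lists of other tissues and of housekeeping genes are given for comparison. Isolated peaks were found at 2 of 20 housekeeping genes, TBP and PSMB2, at 3 of 25 markers of blood, endothelium, epithelium and liver, GATA2, TEK and VWF, at 1 of 22 markers of cartilage, bone and fat, ALPL, at 1 of 21 of neuron and glia, GFAP, and at 0 of 20 of smooth and cardiac muscle. GATA2 had a single control peak, in intron 4 at 4.35-fold, and no knockdown peak in its domain. Of 10 defining markers of the skeletal muscle lineage, 9 had an H3K27ac peak in shSKP2 and 8 in shSCR cells, with none at DES in either. Of all protein-coding genes, 60.2% had a control peak in the same kind of domain.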

How the data were processed

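The authors fragmented formaldehyde-fixed chromatin with micrococcal nuclease, added Drosophila chromatin as a spike-in, aligned reads to GRCh38 (BWA 0.7.17, per the labels) and called peaks per library with MACS3 against input, with regions of an exclusion list removed. Whether spike-in scaling entered the calls is not given in the sources used here. The score, as deposited, equals 10 times the -log10 p. The fold deposited by the authors is a ratio of summit pileup to local background, and the -log10 p and -log10 q deposited by the authors belong to the same summit. Total reads are not in the lists, so depth is known only through the background. The stated threshold equals a -log10 p of 5, but 912 control peaks lay under it, and the lists were used as deposited.

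Groups came from sample titles. Members and gene lists were chosen with earlier results of these data known. Pileup was recovered from fold and Poisson p within 0.001 for 100% of peaks. Positions used GENCODE 44 and hg38; motifs, Wilson and Newcombe 95% intervals and gene cover were computed with Python 3.11.15, numpy 2.4.6, pandas 2.3.3, scipy 1.17.1 and pysam 0.24.0, and tested on simulated data. Named genes were those nearest, within 100 kb, to the 10 highest-scoring isolated, shifted-edge, isolated promoter and isolated MYOD peaks, the 5 domains with most isolated peaks, 2 per gene list (17 lists, 470 entries, all matched), and the loci of the study; peaks without a TSS in that distance, CWH43 included, were added after their values were seen when among the 12 highest. Some peaks that these rules name are not reported here. The hg38 sequence used carries no repeat masking, so copies of the summit 31-mer, chosen after seeing the data, replaced a repeat-masked share. Alternatives were stricter thresholds, 50% reciprocal overlap, a shortened knockdown list and other windows.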

Additional observations from a re-analysis of the deposited data

Results flagged for a closer look

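A single H3K27ac peak of each list lay on the SV40 contig of the authors' alignment, outside the chromosomes analysed, and was 21.7-fold in the shSKP2 list and 5.82-fold in the shSCR list.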

How the results depend on the processing

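No paired analysis was possible because each group holds 1 library and no result comes from a test. The number of members depended on thresholds. Requiring a -log10 p of at least 10 in both lists gave 1041 control-only peaks, 707 isolated and 334 shifted-edge, with isolated peaks at 608 genes. Requiring it of control peaks alone gave 343, 166 and 177, at 145 genes. With the knockdown list shortened to the length of the control list there were 5987 control-only and 3972 isolated peaks, at 2465 genes. Reciprocal overlap of 50% gave 12957 control-only and 11176 shifted-edge peaks.

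The promoter share of isolated peaks was 21.4% with both lists at 10, 15.1% with control peaks at 10, 15.4% with the shortened list, 13.7%, 9.31% and 8.41% with the split at 500, 2000 and 5000 bp, and 8.20% for promoters of 1 kb. Isolated minus kept was then -27.3, -32.4, -27.5, -26.9, -31.3 and -32.2 points in the same order without the 1 kb setting, and -31.0 points with reciprocal overlap. The MYOD share of isolated peaks was 10.7% with both lists at 10, 11.4% with control peaks at 10, 3.03% with MYOD peaks of -log10 p of at least 10, 3.82% with the control MYOD list alone and 9.83% by summits. Isolated minus kept was -6.77 points with MYOD peaks at 10, -6.46 with the control MYOD list, -12.6 by summits and -12.2 with reciprocal overlap. These promoter and MYOD differences had an interval below 0 in 22 of 22 alternatives. All 22 classed peaks by overlap with, or gap to, the same knockdown H3K27ac list, and so share the limits of the rule. The CAGCTG share was 6.63% with control peaks at 10, 5.28% within 50 bp and 49.1% within 500 bp, and isolated minus kept was -2.81 and -1.76 points with control peaks at 10 and within 500 bp, with 0 inside the interval in 11 of 11 alternatives. Restriction to summits whose 31-mer occurs once, the MYOD summit distance and windows of 500 bp were chosen after seeing the data. The cause of these shifts was not tested.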
